A study of Mus musculus with 12 samples.

Results

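The genes described here are 39 genes of the G1/S transition and of DNA replication, chosen by symbol. They comprise 6 E2F transcription factors, 2 pocket proteins, 6 G1/S cyclin and kinase genes, and 25 genes of origin licensing, the replication fork, nucleotide synthesis and the chromatin of newly made DNA. All 39 were among the 45664 rows of the deposited count table and among the 20691 genes tested. The data are bulk RNA-seq of whole embryonic mouse hearts, 12 libraries of 1 embryo each. At E13.5 (embryonic day) there were 3 wild-type hearts (WT) and 3 hearts with Ino80 disrupted (KO), and at E14.5 again 3 of each. Ino80 encodes the ATPase of the INO80 chromatin remodelling complex, and per the labels it was disrupted in the endothelium, through Tie2. Tie2 is a receptor gene of endothelial cells that some blood cells also use. Cells that neither use Tie2 nor descend from cells that did would keep their Ino80. Which cells of a KO heart lost it was not measured. The labels leave out the strain, the deleted part of Ino80 and the alleles of the WT embryos. All 6 E13.5 hearts came from litter 1. The E14.5 hearts came from litters 2 and 3, each with both genotypes, so stage and litter cannot be told apart.

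In late G1, D-type cyclins with Cdk4 or Cdk6, and then E-type cyclins with Cdk2, phosphorylate the retinoblastoma family of pocket proteins and release the E2F factors these hold. Free activating E2Fs switch on genes whose products license and fire replication origins, make deoxynucleotides and package new DNA, while E2f7 and E2f8 later repress the same genes. In the embryonic heart these transcripts mark cycling cells of every type, cardiomyocytes included, and their abundance is widely used as a readout of proliferation.

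Libraries held 46556032 to 182545647 counts, and the 39 genes took 0.268% to 0.337% of them. Levels are counts scaled to library size by TMM and a fixed total (CPM), and a log2 difference is that of the fitted group means. The targeted gene was lower in all KO hearts than in all WT hearts at E13.5, with Ino80 at 36.6, 30.7 and 33.8 CPM in WT (replicates 1, 2 and 4) and at 29.6, 29.6 and 29.6 CPM in KO (replicates 3, 5 and 7). In E14.5 hearts it measured 31.4, 30.8 and 33.9 CPM in WT (replicates 7, 7.2 and 8), against KO values of 31.9, 27.0 and 29.5 CPM (replicates 1, 2 and 4), and the groups overlapped. Neither difference passed the test (edgeR's quasi-likelihood test with Benjamini-Hochberg adjustment over all genes, adjusted p = 0.451 and 0.73). All later values follow the same order of replicates. In bulk tissue, fewer cells of a type and less RNA per cell cannot be told apart.

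No gene of the 39 passed the test between KO and WT hearts at E13.5, at E14.5 or averaged over the stages (adjusted p under 0.05). Of all genes tested, 0.106%, 0.222% and 1.42% passed in these comparisons. The smallest adjusted p among the 39 was 0.315 at E13.5 (Mcm4), 0.495 at E14.5 (Rb1) and 0.171 averaged (Tyms). At an unadjusted p under 0.05 there were 8, 1 and 4 of the 39 genes (20.5%, 2.56% and 10.3%). Of all genes there were 2137, 1985 and 3046 (10.3%, 9.59% and 14.7%). DESeq2 likewise called 0 of the 39 in each comparison. Every 95% interval of the KO effect lay between -0.35 and 0.48 on the log2 scale at E13.5 and between -0.40 and 0.40 at E14.5. For every member, a log2 difference of 0.5 or more in either direction lay outside the interval. This bound is on the level in the whole heart, for each gene taken alone. A change confined to the cells that lost Ino80 was not measured.

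**Figure D1:**
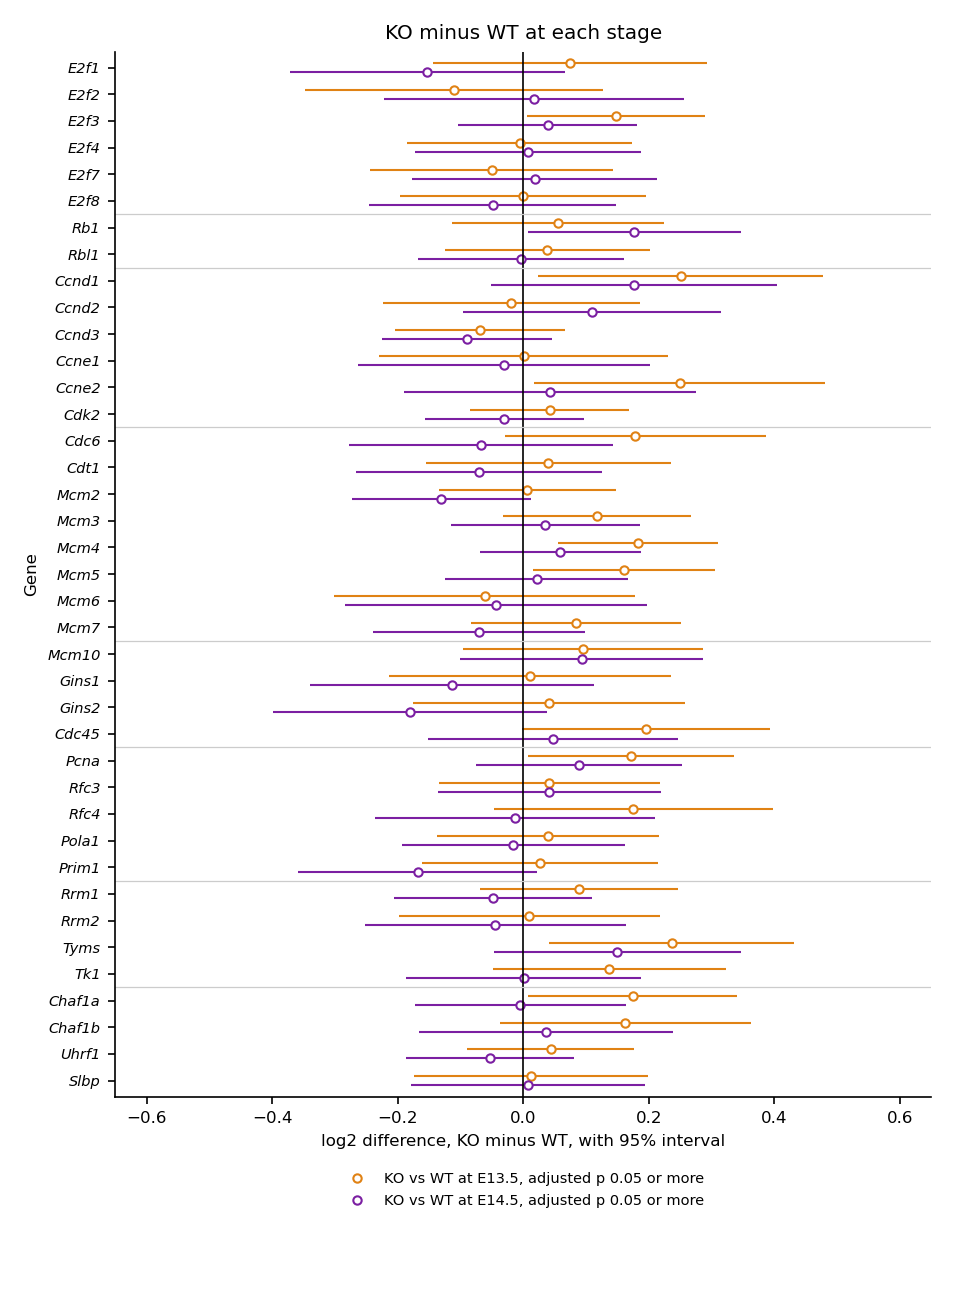
Log2 difference between KO and WT hearts for each of the 39 genes (vertical axis, ordered by role) with its 95% interval, at E13.5 (orange) and E14.5 (purple), 3 hearts per group. All points are open because no gene passed the test, and no interval reaches 0.5 in either direction.

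At E13.5 most of the differences were positive. There 32 of 39 genes were higher in KO than in WT hearts, with a median log2 difference of 0.044, where 50.4% of all genes were higher and the median was 0.0018. In 13 genes each KO heart exceeded each WT heart, a share of 33.3% against 8.44% of all genes. These were E2f3, Ccnd1, Ccne2, Mcm3, Mcm4, Mcm5, Cdc45, Pcna, Rrm1, Tyms, Tk1, Chaf1a and Chaf1b. No gene of the 39 had each KO heart below each WT heart, where 11.2% of all genes did. The counts rest in part on E13.5 KO replicate 3, which held the highest of the 12 values for 16 of the 39 genes. Without that heart 23 of 39 genes were higher in KO. At E14.5 the genes divided evenly, with 19 of 39 higher in KO against 48.1% of all genes. Rb1 and Tyms were higher in each KO than each WT heart there (5.13%, against 6.81% of all genes), and Ccnd3 was lower (2.56%, against 5.87%). Without E14.5 KO replicate 2 the 19 became 10. Averaged over the stages, 25 of 39 genes were higher in KO against 49.3% of all genes, and 0 of 39 had all 6 KO hearts above or below all 6 WT hearts (0.744% and 0.517% of all genes). The difference between the KO effects of the stages (E14.5 minus E13.5) was above 0 in 6 of 39 genes, against 48.6% of all genes. It passed the test for 0 of 39 genes and for 0% of all genes in edgeR. At an unadjusted p under 0.05 there were 0 of the 39 and 746 of all genes (3.61%). DESeq2 called 0 of the 39 and 2 genes in all. The KO effect was thus not shown to differ between the stages for any of the 39 genes.

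**Figure D2:**
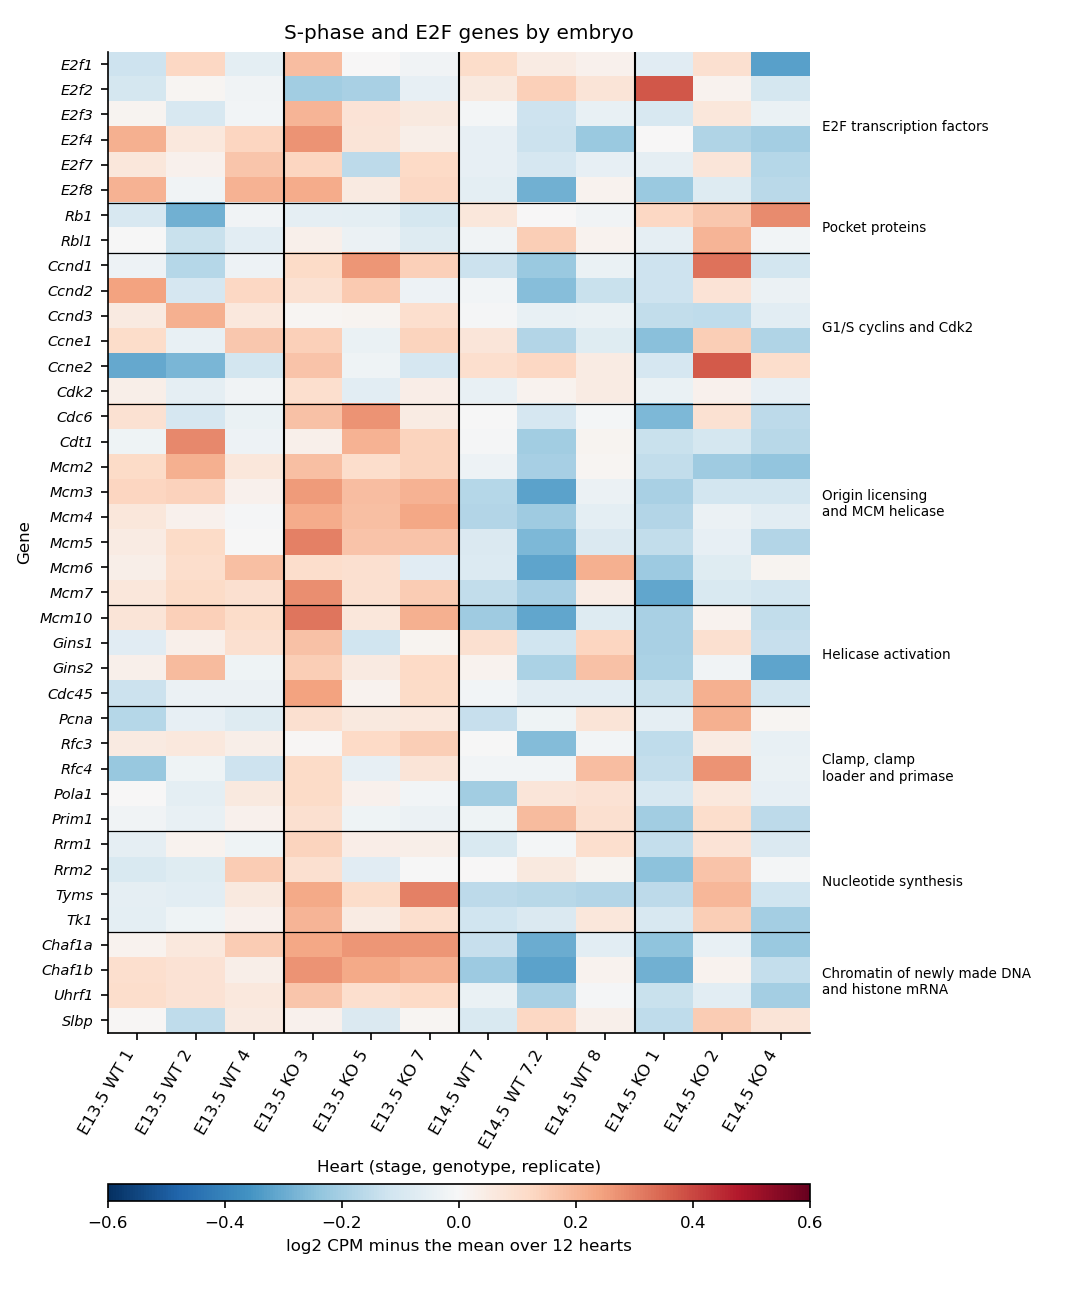
Level of each of the 39 genes (rows, grouped by role) in each of the 12 hearts (columns), as log2 CPM minus the mean of that gene over all hearts. Rows of the MCM ring genes other than Mcm6, and of Mcm10, Chaf1a, Chaf1b and Uhrf1 are mostly red in the E13.5 and mostly blue in the E14.5 columns, and E13.5 KO replicate 3 holds the highest value of 16 rows.

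Between the stages, 5 of 6 MCM ring genes, Mcm10, both CAF-1 genes and Uhrf1 were among the genes that fell. Averaged over both genotypes (6 hearts against 6, a comparison added after the values of the others were seen), 13 of the 39 genes were lower at E14.5 and 1 was higher, together 35.9% of them against 17.2% of all genes tested (8.93% lower and 8.26% higher). The genes that fell were Mcm2, Mcm3, Mcm4, Mcm5, Mcm7, Mcm10, Chaf1a, Chaf1b, Uhrf1, E2f4, E2f8, Ccnd3 and Cdt1, and Rb1 rose. Log2 differences of the 13 ran from -0.33 (Chaf1a) to -0.15 (Ccnd3). In all, 8 of the 39 differences were above 0, against 50.7% of all genes. In 11 genes each E14.5 heart lay below each E13.5 heart (28.2%, against 3.89% of all genes), and in 0 each lay above (3.32%). In WT hearts taken alone only Mcm3 passed, as a fall (2.56% of the 39, against 4.04% of all genes, of which 1.96% fell and 2.08% rose). Within KO hearts 8 genes passed, all lower at E14.5 (20.5%, against 3.74% of all genes, of which 1.63% fell and 2.11% rose), namely Mcm2, Mcm3, Mcm4, Mcm5, Mcm7, Chaf1a, Chaf1b and Uhrf1. Differences above 0 numbered 14 of 39 in WT and 5 of 39 in KO hearts, against 50.5% and 50.7% of all genes. Each E14.5 heart lay below each E13.5 heart for 14 genes in WT and 14 in KO (15.5% and 12.8% of all genes), and above for 3 and 1 (14% and 12.1%). The 1 gene that passed in WT and the 8 that passed in KO do not show a difference between genotypes, because that difference is the interaction given above, which 0 of 39 passed. With any 1 of the E13.5 KO hearts left out, 0 of the 39 passed in KO, without E14.5 KO replicate 1 only 1 did, and without E13.5 WT replicate 1 or 4 there were 5. The call of Mcm3 in WT was lost on leaving out any 1 heart apart from KO replicates 1 and 2 and WT replicate 8 of E14.5 (adjusted p 0.0508 to 0.205). The averaged comparison held 11 to 16 calls over the 12 omissions of a single heart. E14.5 WT replicate 7.2 held the lowest of the 12 values for 13 of the 39 genes. The other heart of litter 3, E14.5 KO replicate 1, did so for 8. Without litter 3 the averaged comparison held 12 calls, and its median log2 difference over the 39 genes went from -0.14 to -0.080. Of the 13 genes that fell, E2f4, Mcm2, Mcm3, Mcm4, Mcm5, Mcm7, Mcm10, Chaf1a, Chaf1b and Uhrf1 passed under each of the 21 alternatives tried, E2f8 under 20, Ccnd3 under 10 and Cdt1 under 9, and Rb1 passed under 16. Because stage and litter coincide, the differences between stages are also differences between litters.

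**Figure D3:**
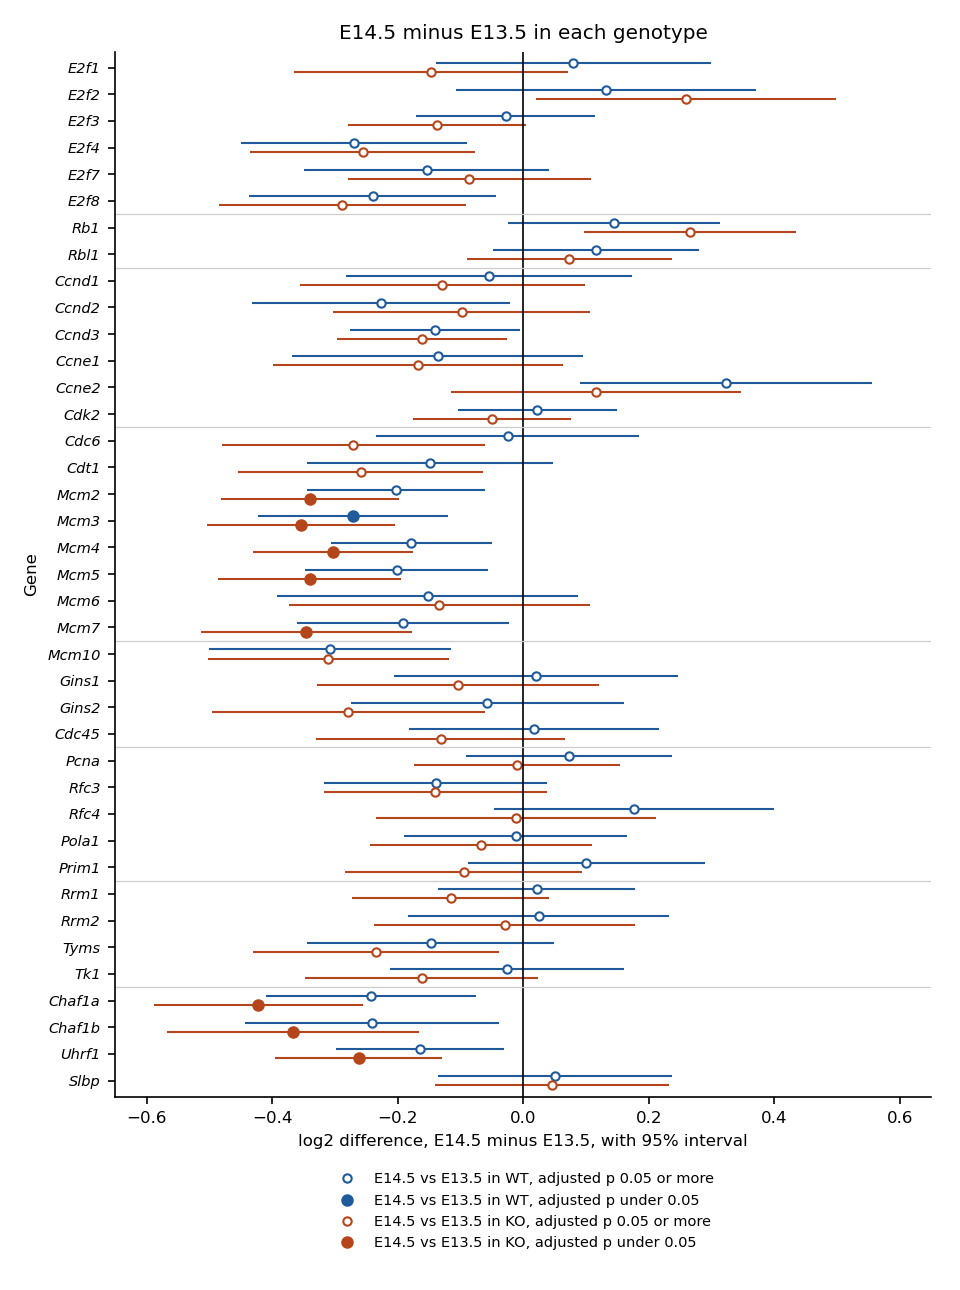
Log2 difference between E14.5 and E13.5 hearts for each of the 39 genes (vertical axis, ordered by role) with its 95% interval, in WT (blue) and KO (red) hearts, 3 hearts per group. Filled points passed the test: Mcm3 in WT, and 8 genes in KO, all to the left of 0.

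Among the transcription factors, the activators E2f1, E2f2 and E2f3 did not pass in edgeR with all 12 hearts. E2f1, the activator best known for driving entry into S phase, measured 39.6, 47.1 and 41.5 CPM in E13.5 WT and 49.2, 43.2 and 42.6 CPM in E13.5 KO hearts. At E14.5 its levels were 46.7, 44.8 and 44.1 CPM in WT and 41.3, 46.2 and 34.4 CPM in KO hearts. KO replicate 4 was the lowest of the 12 and the groups overlapped, with a KO effect of 0.075 (95% interval -0.14 to 0.29) at E13.5 and -0.15 (-0.37 to 0.067) at E14.5. E2f4, an E2F that acts mostly as a repressor with pocket proteins in resting cells, fell between the stages. It measured 43.0, 38.7 and 40.4 CPM in WT and 44.6, 39.1 and 38.0 CPM in KO hearts at E13.5. The E14.5 levels of E2f4 were 35.8, 33.8 and 31.8 CPM in WT and 37.1, 32.6 and 32.2 CPM in KO hearts. Each E14.5 heart lay below each E13.5 heart, and averaged over genotypes the fall was 0.26 ± 0.059 (log2, SE, adjusted p = 0.00998). E2f7, an atypical E2F that represses S-phase genes, measured 21.5, 20.9 and 23.1 CPM in WT and 22.5, 18.5 and 22.3 CPM in KO hearts at E13.5. For E14.5 the values of E2f7 were 19.9, 19.2 and 19.9 CPM in WT and 19.8, 21.6 and 18.3 CPM in KO hearts. Each E14.5 WT heart lay below each E13.5 WT heart, the KO hearts of the stages overlapped, and the averaged difference of -0.12 did not pass (adjusted p = 0.212, and 0.0463 without E13.5 KO 5 and E14.5 KO 2 together). Its partner E2f8 ranged from 30.6 to 43.7 CPM and was 0.26 ± 0.065 lower at E14.5 averaged over genotypes (adjusted p = 0.0146). E2f3 ranged from 46.9 to 58.8 CPM and E2f2 from 10.9 to 16.4 CPM over the 12 hearts. E2f2 passed as a rise between stages, averaged, without E14.5 KO replicate 4 (0.24, adjusted p = 0.0372) and with the erythroid covariate (0.041).

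The pocket proteins, which hold E2Fs inactive until phosphorylated, had the opposite sign to most of the set between stages. Rb1, the retinoblastoma gene, measured 21.0, 18.4 and 22.1 CPM in E13.5 WT and 21.6, 21.5 and 20.9 CPM in E13.5 KO hearts. In E14.5 hearts Rb1 was at 23.5, 22.5 and 22.1 CPM in WT and 24.5, 25.1 and 27.3 CPM in KO. The 3 KO hearts of E14.5 were the highest of the 12. Averaged over genotypes Rb1 rose by 0.21 ± 0.055 (adjusted p = 0.0233), and its KO effect at E14.5 was 0.18 ± 0.079 (adjusted p = 0.495). Exons of Rb1 share 14.9% of their bases with Lpar6 and Rcbtb2 on the other strand, and the labels do not say whether counting used strand. Rcbtb2 (log2 difference -0.042) and Lpar6 (0.078) did not pass between stages averaged over genotypes. In KO hearts alone Lpar6 differed by 0.23 between stages (adjusted p = 0.458) and Rcbtb2 by -0.050 (0.754). Their KO effects at E14.5 were 0.18 for Lpar6 (adjusted p = 0.821) and -0.013 for Rcbtb2 (0.991). The part of either gene in the counts of Rb1 was not tested. Rbl1, which encodes the pocket protein p107 and is itself an E2F target, ranged from 46.8 to 59.0 CPM and passed nowhere.

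Of the G1/S cyclin genes and Cdk2, Ccnd3 fell between stages averaged over genotypes and no other passed with all 12 hearts. Ccnd1, the D cyclin induced by growth factor signals, measured 94.3, 85.5 and 94.2 CPM in WT and 104, 116 and 106 CPM in KO hearts of E13.5. At E14.5 it stood at 88.0, 82.5 and 93.6 CPM in WT and 88.4, 121 and 89.2 CPM in KO hearts. All E13.5 KO hearts exceeded all WT hearts of that stage, while at E14.5 KO replicate 2 alone stood out among overlapping groups. The averaged KO effect of Ccnd1 was 0.21 ± 0.075 (adjusted p = 0.193), and without E14.5 KO replicate 2 the E14.5 effect was 0.012. Without that heart its averaged difference between stages passed as a fall (-0.17, adjusted p = 0.0364). Ccnd1 shares 23.4% of its exon bases with a gene on the other strand. Ccnd2, the most abundant member in CPM, measured 573, 453 and 528 CPM in E13.5 WT and 518, 542 and 475 CPM in E13.5 KO hearts. Its E14.5 levels were 479.6, 407 and 442 CPM in WT and 446, 514 and 474 CPM in KO hearts. Genotypes overlapped at each stage, and the difference between stages did not pass in WT (-0.23, adjusted p = 0.181). Averaged over genotypes it passed as a fall without E13.5 WT replicate 2 (-0.21, adjusted p = 0.0462) and with the erythroid covariate (0.0364). Ccnd3 ranged from 239 to 307 CPM, with each E14.5 heart below each E13.5 heart, and fell by 0.15 ± 0.044 averaged over genotypes (adjusted p = 0.0339). Per kilobase of exon, Ccnd2 made up 49.3% to 51.3% of the summed D cyclin level in the 4 group means, Ccnd3 28.0% to 31.1% and Ccnd1 18.1% to 21.3%.

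The E cyclins start S phase with Cdk2, and neither passed in edgeR with all 12 hearts. Ccne1 measured 25.9, 23.2 and 26.8 CPM in WT and 26.4, 23.3 and 26.2 CPM in KO hearts at E13.5. At the later stage Ccne1 stood at 25.2, 21.2 and 22.7 CPM in WT and 20.1, 26.5 and 21.1 CPM in KO hearts, with overlap throughout (averaged log2 difference between stages -0.15, adjusted p = 0.186). Without E14.5 KO replicate 2 the averaged fall of Ccne1 passed (-0.22, adjusted p = 0.0418). Ccne2 was higher at E14.5 in each WT heart than at E13.5, at 41.3, 41.9 and 39.8 against 31.1, 31.7 and 35.6 CPM. That difference of 0.32 ± 0.11 did not pass (adjusted p = 0.1), nor did the averaged one (0.22, adjusted p = 0.0635). That averaged rise did pass with DESeq2 (0.0416), without litter 3 (0.0393), without E13.5 KO replicate 3 (0.0482) and without E14.5 KO replicate 1 (0.0196). Per kilobase, Ccne2 made up 49.7% ± 1.69 of the E cyclin sum in E13.5 WT and 57.6% ± 2.34 in E14.5 WT hearts (SD, n = 3). In KO hearts the shares were 53.9% ± 2.53 and 58.8% ± 1.17. Ccne2 shares 17.4% of its exon bases with Ints8, which did not pass between stages (0.15 in WT). Cdk2 ranged only from 76.2 to 85.6 CPM over the 12 hearts.

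Origin licensing loads the MCM2-7 ring, the core of the replicative helicase, onto DNA with the help of Cdc6 and Cdt1. Of these 8 genes, 6 fell between stages averaged over genotypes and Cdc6 and Mcm6 did not pass. Mcm3 (chromosome 1, 20802968 to 20820312 on GRCm38) measured 109.7, 110.5 and 102 CPM in WT and 119.8, 114 and 116 CPM in KO hearts at E13.5. It measured 89.0, 80.3 and 97.8 CPM in WT and 87.8, 92.9 and 93.1 CPM in KO hearts at E14.5. Each E14.5 heart lay below each E13.5 heart, and the fall was 0.27 ± 0.070 in WT (adjusted p = 0.0476) and 0.35 ± 0.070 in KO (adjusted p = 0.0215). The WT call held under 7 of 22 alternatives, and adjusted p ranged from 0.0106 to 0.205 over them. Mcm2 (chromosome 6, 88883474 to 88898780) stood at 132, 142 and 129 CPM in E13.5 WT and 139, 132 and 134 CPM in E13.5 KO hearts. At E14.5 Mcm2 was down to 119.9, 107 and 124 CPM in WT and 110.5, 106 and 104 CPM in KO hearts. No E14.5 heart reached the lowest E13.5 value, and in KO hearts Mcm2 fell by 0.34 ± 0.066 (adjusted p = 0.0206). In E14.5 hearts its KO effect was -0.13 ± 0.066 (adjusted p = 0.573), the second smallest p of the 39 genes there.

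Mcm4 (chromosome 16, 15623897 to 15637400) measured 114, 111 and 109 CPM in E13.5 WT and 128, 124 and 128 CPM in E13.5 KO hearts. The E14.5 levels of Mcm4 were 96.7, 94.0 and 105 CPM in WT and 96.8, 106 and 105 CPM in KO hearts. KO hearts were above WT hearts at E13.5 without overlap, by 0.18 ± 0.059 (adjusted p = 0.315), the smallest p of the 39 genes in that comparison. Between stages Mcm4 fell by 0.30 ± 0.059 in KO hearts (adjusted p = 0.0213), while the WT difference was -0.18 (adjusted p = 0.0992). Mcm5 (chromosome 8, 75109569 to 75128439) measured 104, 109 and 101 CPM in WT and 124, 114 and 114 CPM in KO hearts at E13.5. One day later Mcm5 stood at 95.0, 83.7 and 94.9 CPM in WT and 91.0, 97.5 and 89.2 CPM in KO hearts. Like Mcm4, it had KO above WT without overlap at E13.5 (0.16, adjusted p = 0.438) and overlapping genotypes at E14.5 (0.022). The fall of Mcm5 in KO hearts was 0.34 ± 0.068 (adjusted p = 0.0215). Mcm7 (chromosome 5, 138164583 to 138172422) measured 109, 112 and 111 CPM in WT and 126, 111 and 115 CPM in KO hearts of E13.5. It reached 93.4, 90.3 and 107 CPM in WT and 83.5, 97.3 and 95.9 CPM in KO hearts of E14.5, each below each E13.5 heart. In KO hearts it fell by 0.35 ± 0.078 (adjusted p = 0.0333). Exons of Mcm7 share 12.6% of their bases with other genes, among them Ap4m1 and Cops6. Neither passed between stages in KO hearts (-0.14 and -0.052), in WT hearts (-0.29, adjusted p = 0.142, and -0.042) or averaged over genotypes. The averaged differences were -0.22 for Ap4m1 (adjusted p = 0.0708) and -0.047 for Cops6. The part of Ap4m1 in the counts of Mcm7 was not tested.

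Mcm6 is the ring subunit for which no difference between stages passed with all 12 hearts. Its E13.5 values were 153, 160.4 and 169 CPM in WT and 160.4, 159 and 142 CPM in KO hearts. At E14.5 they were 141, 119.8 and 173 CPM in WT and 128, 142 and 151 CPM in KO hearts. WT replicate 8 of E14.5 was the highest of the 12 and the stages overlapped. The averaged difference of -0.14 had a 95% interval of -0.31 to 0.027. That interval includes the falls of the other 5 subunits, and without E14.5 WT replicate 8 the averaged fall of Mcm6 passed (-0.22, adjusted p = 0.0376). Cdc6, which recruits the ring to origins, measured 22.3, 19.5 and 20.3 CPM in WT and 23.6, 25.2 and 21.6 CPM in KO hearts at E13.5. E14.5 levels of Cdc6 were 20.9, 19.5 and 20.8 CPM in WT and 17.3, 22.3 and 18.8 CPM in KO hearts. Its interaction of -0.25 ± 0.14 had the smallest p of the 39 genes and did not pass (adjusted p = 0.997). Without E14.5 KO replicate 2 Cdc6 passed as a fall between stages in KO hearts (-0.38, adjusted p = 0.0499) and averaged (-0.20, 0.0444), as it did averaged with the erythroid covariate (0.0356). Cdt1, the licensing factor destroyed as S phase begins, ranged from 46.2 to 65.4 CPM and fell by 0.20 ± 0.064 averaged over genotypes (adjusted p = 0.0441).

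**Figure D4:**
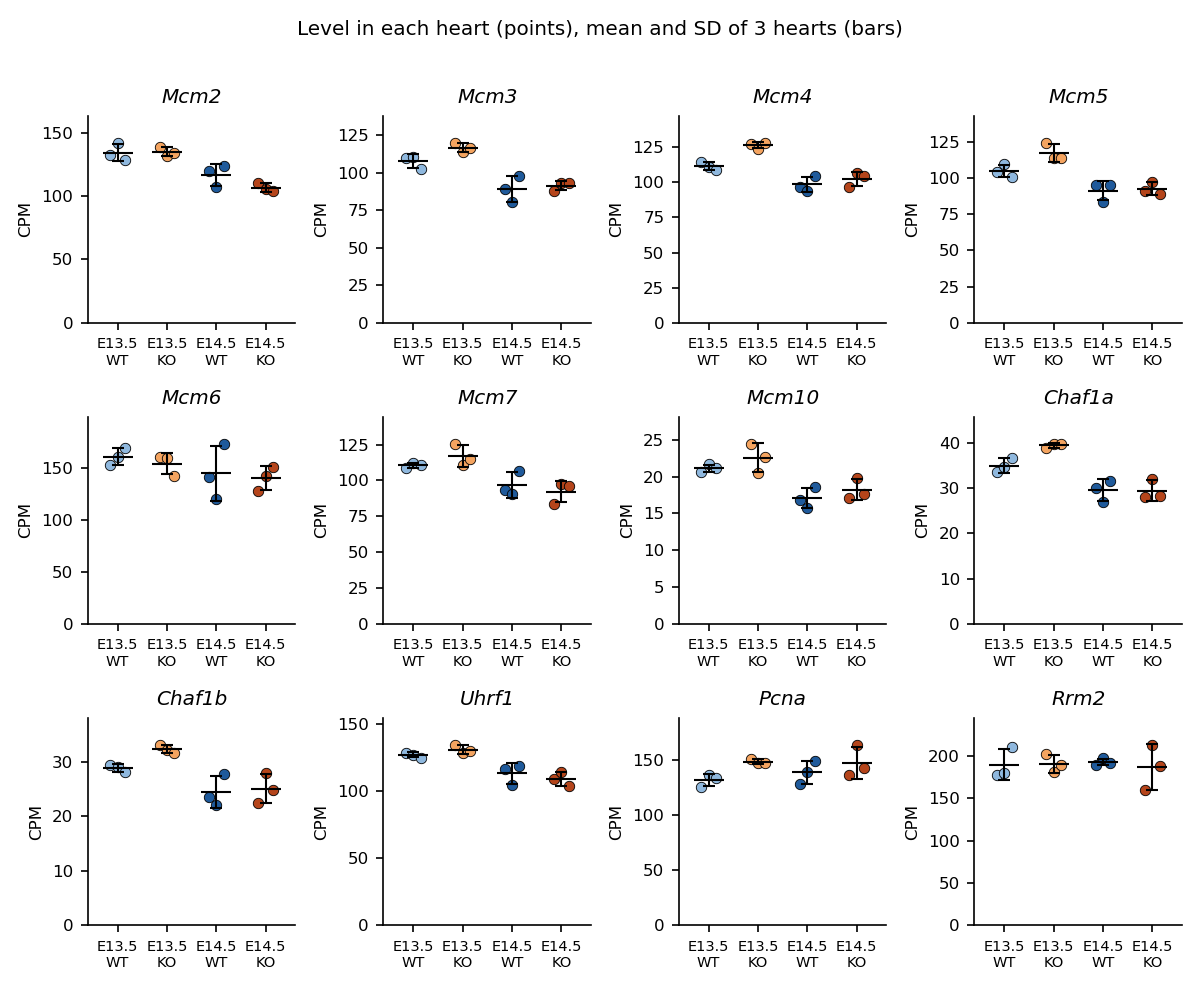
Level in CPM (vertical axis, from 0) of 12 genes in each heart (points), with mean and SD of 3 hearts per group (bars), for the stages and genotypes on the horizontal axis. The MCM genes other than Mcm6, and Mcm10, Chaf1a, Chaf1b and Uhrf1, lie lower at E14.5, while the stages overlap for Pcna and Rrm2.

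E2F factors bind a short site with a GC-rich core near the start of many of these genes, and CCAAT is bound by NF-Y, a factor common in cell cycle promoters. Promoter windows of RefSeq (GRCm38.p6, 250 bases before to 50 after a start site) were given for 31 of the 39 genes. In 29 of their 36 windows, the 12 bases after the start site lay in a transcript of that gene (GENCODE M21). In the others the start site is less sure. E2f4, Rb1, Ccnd1, Ccnd2, Ccne2, Mcm4, Gins1 and Gins2 had no entry. The letters TTTCCCGC, TTTCGCGC, TTTGCCGC or TTTGGCGC stood on either strand in the windows of 14 of 31 genes (45.2%), against 2.6% of 27025 genes with a window. Of the genes that fell in any stage comparison, Mcm3, Mcm5, Mcm7, Uhrf1 and Cdt1 held a match, as did Mcm6, E2f2, E2f3, E2f7, Rbl1, Cdk2, Cdc6, Pola1 and Rfc3. Counting only the bases before the start site, the shares were 35.5% and 2.16%. CCAAT, on either strand, was in the window of 71.0% of the members and of 41.1% of all genes with one, and of 11 of 11 mitosis genes. The E2F letters stood in 27.0% of 63 other pathway genes and in 9.09% of the 11 mitosis genes. A match is a description of the letters, not a measured binding site. The sequences below are the bases before the start site of the genes with a match that had the smallest p for the averaged KO effect (E2f3 and Mcm5) and for the stage difference in WT (Mcm3 and again Mcm5), 5′ to 3′ on the gene's strand with matches in capitals.
E2f3, chr13:29986064-29986313, minus strand: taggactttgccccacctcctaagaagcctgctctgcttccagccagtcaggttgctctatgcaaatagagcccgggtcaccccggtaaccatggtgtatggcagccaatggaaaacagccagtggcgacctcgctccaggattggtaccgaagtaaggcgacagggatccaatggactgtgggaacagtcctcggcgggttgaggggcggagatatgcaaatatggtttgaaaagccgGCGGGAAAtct
Mcm5, chr8:75109259-75109508, plus strand: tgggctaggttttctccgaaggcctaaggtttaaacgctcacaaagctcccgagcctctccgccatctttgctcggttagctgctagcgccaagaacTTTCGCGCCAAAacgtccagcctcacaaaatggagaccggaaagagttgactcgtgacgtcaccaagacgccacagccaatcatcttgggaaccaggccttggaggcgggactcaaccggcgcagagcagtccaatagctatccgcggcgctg
Mcm3, chr1:20820313-20820562, minus strand: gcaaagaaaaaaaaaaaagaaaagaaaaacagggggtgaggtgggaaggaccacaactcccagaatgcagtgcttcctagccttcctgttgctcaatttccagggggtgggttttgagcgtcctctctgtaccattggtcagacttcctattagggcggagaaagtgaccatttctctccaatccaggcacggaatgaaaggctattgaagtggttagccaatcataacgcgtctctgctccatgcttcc
Mcm3, chr1:20820267-20820293, minus strand, after the start site: GCGGGAAAacttgggaagtTTTGGCGC
The match of E2f3 begins 11 bases before the start site, in the window of the more upstream of its pair of start sites. In Mcm5, whose stage difference was -0.27 averaged over genotypes, matches on opposite strands overlap and begin 153 and 149 bases before it. The whole window of Mcm5 lies before the first base of the gene given above, so these distances depend on the annotation. For Mcm3, with -0.31, the 250 bases before the start hold no match, and a pair of them begin at bases 20 and 39 after it, counted with the start site as base 1.

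Helicase activation joins Cdc45 and the GINS complex to the MCM ring with the help of Mcm10. Mcm10 measured 20.6, 21.6 and 21.1 CPM in E13.5 WT and 24.4, 20.5 and 22.7 CPM in E13.5 KO hearts. At E14.5 it measured 16.9, 15.8 and 18.5 CPM in WT and 17.1, 19.8 and 17.7 CPM in KO hearts. Each E14.5 heart was below each E13.5 heart, and the fall averaged over genotypes was 0.31 ± 0.063 (adjusted p = 0.00633). The other genes of this step did not pass in any comparison. Cdc45 ranged from 27.3 to 35.3 CPM, was higher in each E13.5 KO than WT heart (0.20, adjusted p = 0.487) and differed by -0.057 between stages. Gins1 ranged from 15.0 to 19.4 CPM. Gins2 ranged from 19.1 to 27.1 CPM, but 67.3% of its exon bases overlap Gse1 on the other strand, so its counts may hold reads of Gse1.

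The sliding clamp, its loader and primase carry the polymerases along the fork, and no gene of this group passed in any comparison. Pcna, the clamp, measured 125, 136 and 134 CPM in WT and 151, 147 and 147 CPM in KO hearts at E13.5. The E14.5 values of Pcna were 128, 139 and 149 CPM in WT and 136, 164 and 142 CPM in KO hearts. KO hearts were higher without overlap at E13.5 (0.17 ± 0.076, adjusted p = 0.465), and between stages the averaged difference was 0.031 (95% interval -0.085 to 0.15). Levels of Pcna are uncertain, since the Pcna pseudogene Pcna-ps2 took 127092 counts over all libraries against 146416 for Pcna. Pcna-ps2 had the opposite sign in KO hearts, -0.14 at E13.5 (adjusted p = 0.569). Prim1, the primase subunit that starts each fragment, measured 31.3, 30.9 and 32.4 CPM in E13.5 WT and 34.0, 31.3 and 31.0 CPM in E13.5 KO hearts. At E14.5 Prim1 was at 31.2, 36.2 and 34.0 CPM in WT and 27.5, 34.2 and 28.6 CPM in KO hearts, with overlap (KO effect -0.17 ± 0.088, adjusted p = 0.6). Rfc3 ranged from 21.9 to 29.0 CPM, Rfc4 from 29.9 to 42.1 CPM and Pola1, of the primase-bound polymerase, from 37.3 to 46.7 CPM.

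No gene of deoxynucleotide synthesis passed in edgeR with all 12 hearts. Rrm2, the S-phase subunit of ribonucleotide reductase, measured 178, 180.2 and 211 CPM in E13.5 WT and 202, 181 and 189 CPM in E13.5 KO hearts. Its E14.5 values were 189.6, 197 and 192 CPM in WT and 159.9, 213 and 188 CPM in KO hearts. Both extremes were E14.5 KO hearts, and the averaged difference between stages of -0.0026 had a 95% interval of -0.15 to 0.14. That interval ends short of the fitted falls of Mcm2, Mcm3, Mcm4, Mcm5 and Mcm7, but a difference between genes was not tested. Tyms, which makes the thymidine nucleotide, measured 32.7, 32.6 and 35.4 CPM in WT and 39.9, 36.7 and 42.0 CPM in KO hearts at E13.5. In E14.5 hearts Tyms stood at 30.5, 30.3 and 30.1 CPM in WT and 30.5, 39.1 and 31.3 CPM in KO. KO hearts were above WT hearts at both stages without overlap, at E14.5 by a narrow margin outside KO replicate 2. The averaged KO effect of Tyms, 0.19 ± 0.064 (95% interval 0.054 to 0.33), had the smallest p of the 39 genes and did not pass (adjusted p = 0.171, 0.0866 to 0.329 over 22 alternatives). Between stages the averaged difference of Tyms was -0.19 (adjusted p = 0.0577), and it passed with DESeq2 (0.0353) and without E14.5 KO replicate 2 (-0.25, adjusted p = 0.00813). Without that heart Tyms also passed in KO hearts (-0.36, adjusted p = 0.0359). Tk1, the thymidine salvage kinase, ranged from 48.4 to 64.1 CPM, and Rrm1, the large reductase subunit, from 189 to 229 CPM.

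New DNA is packaged by the CAF-1 chaperone, of which Chaf1a and Chaf1b encode subunits, and Uhrf1 guides DNA methylation onto it. All 3 genes fell between the stages in KO hearts and in the average over genotypes. Chaf1a (chromosome 17, 56040439 to 56072289) measured 33.6, 34.5 and 36.7 CPM in E13.5 WT and 38.8, 39.7 and 39.7 CPM in E13.5 KO hearts. At E14.5 Chaf1a stood at 30.1, 26.9 and 31.6 CPM in WT and 28.0, 32.0 and 28.3 CPM in KO hearts. KO hearts were the higher group without overlap at E13.5 and overlapped with WT at E14.5, where all values were lower. In KO hearts the fall of 0.42 ± 0.077 was the largest of the 39 genes (adjusted p = 0.0174). Exons of Chaf1a share 52.5% of their bases with Ubxn6 on the other strand, and Ubxn6 differed by 0.027 between stages in KO hearts (adjusted p = 0.895). Chaf1b (chromosome 16, 93883901 to 93906115) measured 29.5, 29.1 and 28.2 CPM in WT and 33.2, 32.2 and 31.7 CPM in KO hearts of E13.5. For E14.5 the levels were 23.6, 22.0 and 27.9 CPM in WT and 22.5, 27.9 and 24.9 CPM in KO hearts, none reaching the lowest E13.5 value, and the KO fall was 0.37 ± 0.093 (adjusted p = 0.0472). That call was lost without edgeR's robust option (0.0513), with RLE size factors (0.0511) and under further alternatives (adjusted p up to 0.149).

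Uhrf1 (chromosome 17, 56303321 to 56323486) measured 129, 127 and 125 CPM in WT and 135, 128 and 130.3 CPM in KO hearts at E13.5. By E14.5 it stood at 116, 105 and 119 CPM in WT and 109, 115 and 104 CPM in KO hearts. The 6 E14.5 hearts lay below the 6 E13.5 hearts, with a fall of 0.26 ± 0.062 in KO (adjusted p = 0.0373) and of 0.21 averaged over genotypes (adjusted p = 0.00649). The KO call of Uhrf1 was lost without the low-count filter (0.0557) and under further alternatives (adjusted p up to 0.132). Slbp, which binds the stem-loop of histone mRNA, measured 50.6, 45.2 and 52.2 CPM in E13.5 WT and 51.2, 47.3 and 50.8 CPM in E13.5 KO hearts. Its E14.5 levels were 47.2, 54.8 and 51.3 CPM in WT and 45.3, 55.8 and 53.1 CPM in KO hearts. Groups overlapped everywhere, and the averaged difference between stages was 0.048 (95% interval -0.084 to 0.18).

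Per kilobase of exon, levels over the 12 hearts spanned from 2.29 ± 0.178 CPM per kilobase (E2f7) to 68.6 ± 5.33 (Rrm2, SD, n = 12). After Rrm2 came Pcna at 58.9 ± 4.45 and Ccnd2 at 51.8 ± 5.11, and the ranges of mean ± SD of neighbours in this order overlapped. Among the ring subunits the order was Mcm6 at 32.1 ± 3.41, Mcm4 at 30.6 ± 3.29, Mcm3 at 26.9 ± 3.41, Mcm5 at 25.4 ± 2.99 and Mcm7 at 23.5 ± 2.73, and these neighbours too overlapped within 1 SD. Mcm2 was lowest of the ring at 17.7 ± 1.95, apart from Mcm7 by more than their SDs. Among the E2Fs the order was E2f4 at 15.2 ± 1.71, E2f1 at 13.8 ± 1.25, E2f3 at 9.42 ± 0.619, E2f8 at 6.92 ± 0.815, E2f2 at 2.61 ± 0.301 and E2f7 at 2.29 ± 0.178 CPM per kilobase, with E2f4 and E2f1, and E2f2 and E2f7, within each other's spread. These ranks pool the groups: in E13.5 KO hearts Mcm4 (35.3 ± 0.659) stood above Mcm6 (33.0 ± 2.15), and in E14.5 WT hearts E2f1 (14.3 ± 0.425) above E2f4 (13.8 ± 0.814). On this scale Rb1 stood at 3.75 and Rbl1 at 8.57. Exon lengths are the union over all transcripts of GENCODE M21, so a gene with a long, little-used exon is placed too low.

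**Figure D5:**
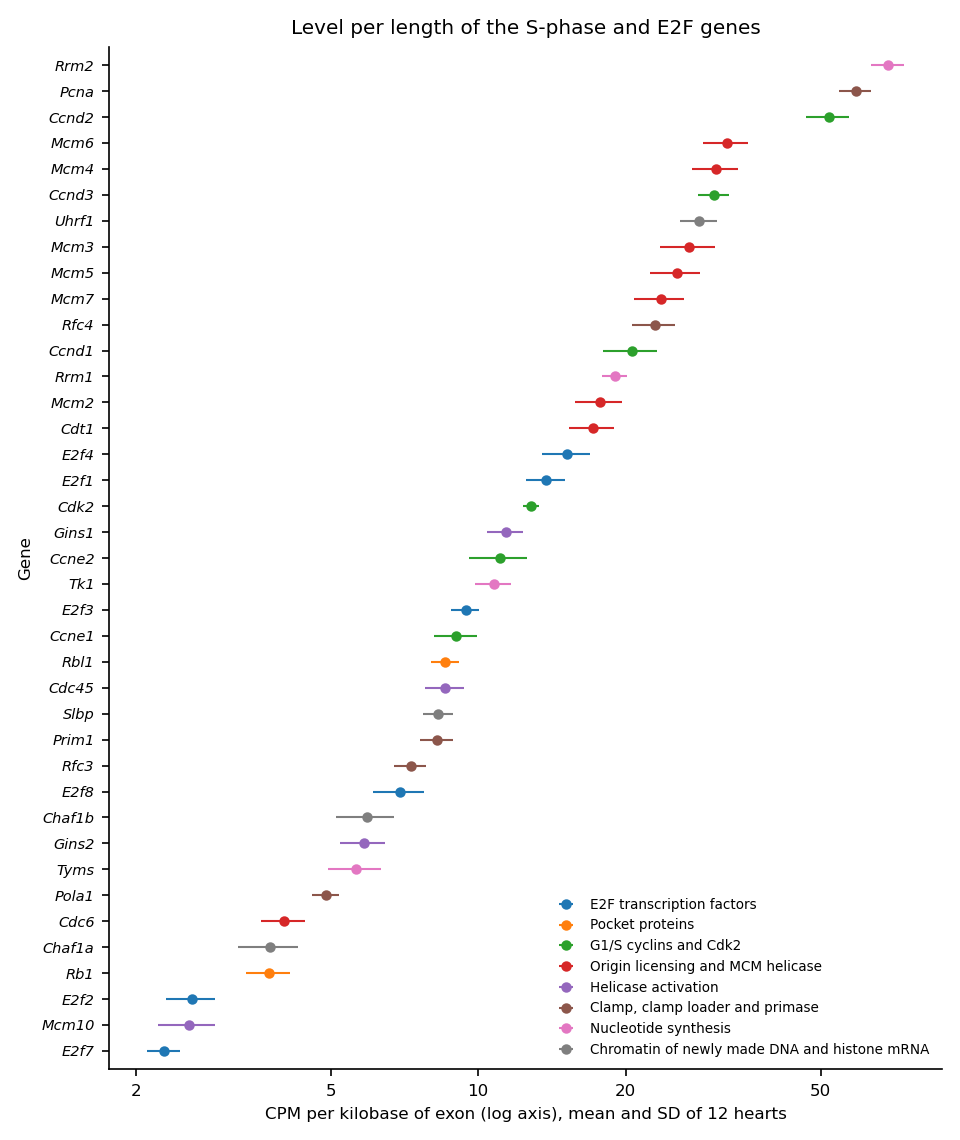
Mean level of each of the 39 genes over the 12 hearts in CPM per kilobase of exon (horizontal log axis) with SD bars, coloured by role. Rrm2, Pcna and Ccnd2 stand highest, the MCM ring genes lie between 17.7 and 32.1, and E2f7, Mcm10 and E2f2 are lowest.

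Of 78 other genes of the same pathway, 77 were tested, and 1 passed between genotypes. It did so averaged over the stages (1.3% of the 77, against 1.42% of all genes). Cdkn1a, which encodes the Cdk inhibitor p21, measured 19.9, 22.5 and 23.4 CPM in WT and 36.8, 41.3 and 40.6 CPM in KO hearts at E13.5. At E14.5 it was at 26.7, 28.5 and 29.1 CPM in WT and 44.9, 67.5 and 33.8 CPM in KO hearts. KO exceeded WT without overlap at each stage, and the averaged KO effect was 0.82 ± 0.13 (adjusted p = 0.0134; 0.0509 without litter 3). Next in that comparison was Tfdp1, the main dimer partner of E2Fs, at 0.16 ± 0.047, which did not pass (adjusted p = 0.121). At either stage alone 0 of the 77 passed in edgeR, with an unadjusted p under 0.05 for 8 at E13.5 (10.4%, against 10.3% of all genes) and 3 at E14.5 (3.9%, against 9.59%).

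Between stages, 3 of the 77 other genes fell in WT hearts (3.9%). Of all genes 4.04% passed there, 1.96% as a fall and 2.08% as a rise. In KO hearts 9 fell and 4 rose (16.9%, against 3.74%), and averaged over genotypes 17 fell and 5 rose (28.6%, against 17.2%). By list, the falls in the average lay in origin firing (4 of 10), replicative polymerases and loader (3 of 10), fork, ligation and checkpoint genes (3 of 12), other replication-coupled chromatin genes (2 of 8), other G1 and S kinases and cyclins (2 of 4), and 1 each in the Cdk inhibitors, the DREAM complex and other nucleotide synthesis. Origin recognition and licensing control had 0 of 8 in edgeR, and 0 at an unadjusted p under 0.05. Lig1, the ligase that seals nascent strands, measured 85.9, 85.1 and 85.7 CPM in WT hearts at E13.5 and 65.7, 63.4 and 74.3 CPM at E14.5, a fall of 0.34 ± 0.078 (adjusted p = 0.0355). Cdkn1c, the imprinted Cdk inhibitor p57, went from 523, 587 and 535 to 328, 266 and 362 CPM in WT, a fall of 0.78 ± 0.15 (adjusted p = 0.0237). Without litter 3 neither passed in WT (0.107 and 0.0815), nor did either without any 1 of the E13.5 WT hearts or without E14.5 WT replicate 7.2. Lig1 was also lost without E14.5 WT replicate 7 (0.0791) and without E13.5 KO replicate 7 (0.052). Rbl2, the pocket protein p130 of resting cells, rose in KO hearts from 31.8, 31.0 and 37.0 to 46.5, 46.7 and 46.4 CPM (0.48 ± 0.078, adjusted p = 0.0111), and was chosen for mention after its values were seen. That call was lost without E13.5 KO 5 and E14.5 KO 2 together (0.0696). Rbl2 was also higher in each E14.5 than each E13.5 WT heart, at 48.3, 49.4 and 44.0 against 38.0, 40.7 and 42.2 CPM. Each E13.5 KO heart lay below each E13.5 WT heart. Of 13 mitosis and G2/M genes, 0 passed between genotypes in edgeR, with 0 at an unadjusted p under 0.05 in each comparison. Plk1, a mitotic kinase, was the 1 gene of that list to fall in WT (-0.41, adjusted p = 0.0198) and in KO hearts (-0.29, adjusted p = 0.0418), and neither call held without litter 3 (0.0615 and 0.0818). The KO call of Plk1 held under only 8 of 22 alternatives (adjusted p up to 0.178) and the WT call under 17 (up to 0.0886). In KO the only single hearts it could lose were E13.5 KO replicate 5 and E14.5 WT replicate 7.2, and in WT it was lost without any 1 of the E13.5 WT hearts or E14.5 WT replicate 7.2.

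Markers of other cells moved with genotype and stage, and their part in the values above was not tested beyond a covariate for the erythroid list. The 12 macrophage and leukocyte genes summed to 102 to 107 CPM in E13.5 WT and 12.4 to 62.8 CPM in E13.5 KO hearts, the comparison in which 32 of the 39 genes were higher in KO. At E14.5 the same sum was 87.0 to 92.2 CPM in WT and 19.9 to 112 CPM in KO hearts. The 12 erythroid genes tested summed to 6916 to 12057 CPM in WT and 5848 to 10076 CPM in KO hearts at E13.5. At E14.5 they summed to 11791 to 18417 and 4912 to 41954 CPM. The mean log2 CPM of the same genes had the opposite order in WT, 5.86 ± 0.377 at E13.5 and 5.58 ± 0.183 at E14.5 (SD, n = 3). With that mean log2 level as a covariate, 16 genes of the 39 passed between stages averaged over genotypes, where 14 passed without it. Sums of 10 cardiomyocyte genes were 19576 to 20313 and 16605 to 21045 CPM at E13.5 and 20930.4 to 25024 and 17775 to 23725 CPM at E14.5, in WT and KO order. Sums of 10 endothelial and endocardial genes were 985 to 1107 and 959 to 999 CPM at E13.5 and 901 to 1088 and 1078 to 1127 CPM at E14.5. Epicardial, valve and fibroblast, and smooth muscle sums overlapped between all 4 groups. The mean log2 CPM of the 6 smooth muscle and pericyte genes, in which each gene weighs equally, did separate the stages, at 4.90 to 5.15 in WT and 4.90 to 5.32 in KO hearts of E13.5 and 5.42 to 5.85 and 5.35 to 6.10 at E14.5. This list was higher at E14.5, where the MCM, CAF-1 and Uhrf1 transcripts were lower, and its part in those falls was not tested. Hepatic genes summed to at most 3.57 CPM in any heart, so the libraries carried cardiomyocyte genes at high levels and liver genes close to 0, as the heart label implies. None of the macrophage, erythroid, endothelial or cardiomyocyte genes tested was at 0 in any heart.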

How the data were processed

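Gene expression was measured by RNA-seq of 12 whole hearts, 3 libraries in each of 4 groups. The deposited table holds whole-number counts per gene symbol, made by the authors. Per the submitters' processing notes STAR 2.5.3a, featureCounts, DESeq2, DESeq and the build GRCm38 were used, with no order or role given. Not given in the sources used here were the annotation, the use of strand and the handling of reads with several positions. Of 45664 rows, 27 had symbols turned into dates, which did not touch the members. No 2 libraries were copies of each other by a chi-square comparison of their counts.

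Counts were scaled by TMM, filtered with filterByExpr on the 4 groups (20691 genes) and tested with edgeR 4.0.16 (R 4.3.3, limma 3.58.1) in 1 quasi-likelihood fit over all 12 libraries, 1 mean per group, two-sided, with the robust option, 8 residual degrees of freedom and Benjamini-Hochberg adjustment over all genes. Calls needed an adjusted p under 0.05. The robust option, the comparison of stages averaged over genotypes and the removal of date-like symbols were chosen after the data were seen. The members, the lists and the named genes were chosen with earlier results of these data known. Named with values in every heart are a panel of 12 members, in each comparison the 3 with the smallest p, and the members called between stages in KO hearts. Mcm6 was added to complete the helicase, and Ccne2 after its values were seen. Promoter sequences are shown for the 2 members with a motif match and the smallest p in the averaged KO comparison and in the WT stage comparison. Other pathway genes are named where they passed between genotypes or had 1 of the 2 smallest p in those same comparisons, together with Rbl2. Errors of log2 differences are SE, and 95% intervals come from the same fit. Exon overlaps and lengths are from GENCODE M21 (GRCm38). At these depths a member had at least 561 counts in every library, so the spread between hearts limits the precision. There were 3 hearts per group. The coefficient of variation of the members over the 12 hearts, group differences included, was 3.68% to 13.9%. The common biological value over all genes, estimated within groups, was 17.1%, and the 2 measures are not alike. Per the labels each library is 1 embryo's heart. Litter numbers pair WT and KO hearts only at E14.5, where the deviations of hearts of the same litter had a mean correlation of 0.00399 over 5 pairs and those of different litters -0.00501 over 4 pairs. The deviations are from group means of 3 hearts, which ties the 2 correlations to each other. These correlations therefore cannot show whether litter mattered. Alternatives tried were DESeq2 1.42.0, a fit without the filter, litter as a replicate block, RLE size factors, a fit of only the libraries compared, covariates for Y-linked and erythroid expression, and leaving out each heart, litter 3, or E13.5 KO 5 with E14.5 KO 2. Fits without the robust option and without date-like symbols were tried as well. The test was checked on simulated data.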

Additional observations from a re-analysis of the deposited data

How the results depend on the processing

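In comparisons of KO with WT and in the interaction, 0 of the 39 genes passed under each alternative tried, DESeq2 included, and no named gene's difference changed sign where it was called. With litter as a replicate block, 0 of the 39 genes passed at E13.5, at E14.5, averaged over stages and in the interaction, and 60, 92 and 398 of all genes passed in the first 3 of these. E13.5 hearts come from 1 litter and stage coincides with litter, so no paired analysis was possible between stages. Between stages in WT hearts, where 1 of the 39 passed, 0 passed with RLE size factors, with only the libraries compared, without litter 3, without E13.5 KO 5 and E14.5 KO 2 together, and with the Y-linked or the erythroid covariate, and 6 passed with DESeq2. In KO hearts 8 passed, against 3 with only the libraries compared and 2 without E13.5 KO 5 and E14.5 KO 2 together. There 7 passed without the robust option and 7 without date-like symbols, where Chaf1b was lost (adjusted p = 0.0513 and 0.0524). Leaving out 1 heart at a time gave 0 to 1 in WT, 0 to 10 in KO and 11 to 16 in the average over genotypes. Of all genes, 2 to 69 passed at E13.5, 10 to 107 at E14.5 and 125 to 483 averaged when 1 heart was left out, where DESeq2 called 310, 348 and 926. Between stages DESeq2 called 2140 genes in WT, 1822 in KO and 4505 averaged, where edgeR called 836, 774 and 3557, and the omission of 1 heart left 8 to 1081, 66 to 1076 and 2299 to 3681. The cause of these shifts was not tested. Fits with fewer hearts have fewer residual degrees of freedom.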
